A study of Homo sapiens with 6 samples.

Results

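The recurrent background sites described here are the places on the human genome where all 3 slices of a PAR-CLIP background library set had read pile-ups. A site is a group of overlapping reads on one strand, as the authors' peak finder wrote it. Members were chosen by their reads in the 3 slices: a G45 site was kept when it held 25 or more reads and overlapped, by 1 bp or more on the same strand, a site with 25 or more reads in G20 and another in G35. This rule kept 6240 of the 13711 G45 sites with 25 or more reads, out of 10639684 sites of any depth in the 6 libraries. Levels in the slices are therefore a description.

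G20, G35 and G45 were single libraries from HEK293 cells, a human embryonic kidney line, that stably carried FLAG-tagged GFP under a doxycycline-inducible promoter. GFP is a fluorescent protein and no RNA-binding protein, and the 3 libraries came from gel slices near 20, 35 and 45 kDa after a FLAG M2 immunoprecipitation. HuR replicates 1 and 2 came from HEK293 cells in which FLAG-tagged HuR was induced in the same way. All cells had been given 4-thiouridine (4SU) and were irradiated at 365 nm, and RNase T1 trimmed the RNA. The Total library came from 4SU-labelled HEK293 RNA without an immunoprecipitation, after proteinase K digestion and depletion of ribosomal RNA. Nothing in the labels says whether the 2 HuR samples were separate cultures.

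In PAR-CLIP, 4SU is built into new RNA and is joined by long-wave UV to proteins that touch it. A crosslinked 4SU is read as C in place of T, so T-to-C changes mark candidate contact points. RNase T1 cuts single-stranded RNA after G. HuR (ELAVL1) binds U-rich and AU-rich stretches, mostly in introns and 3' untranslated regions of messenger RNA precursors, and it stabilises many messages.

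The recurrent sites were short, and most lay in no annotated exon. The sites below are shown because they were among the 3 members of their class with the highest geometric mean RPM (reads scaled to library depth) over the 3 slices, or among the 3 highest with no Total read. They are read 5′ to 3′ on their own strand from GRCh37 (hg19), and capitals mark T, the base at which 4SU conversions can be seen.
chr2:62613217-62613240, minus strand, intergenic: aaTTcaagaTgagaTcTgcTgggg
chr3:31079981-31080004, minus strand, intergenic: aagagcTgTagagaaaTTgagTca
chr4:33657498-33657519, minus strand, intergenic: acTggTagcTaTgTTTggaaaa
chr7:86415079-86415101, minus strand, intron of GRM3-AS1: gagTTTaaTTTgggaacTgcaTg
chr5:107772087-107772110, plus strand, intergenic: acTaagTaacTagaggaaaagaag
chr7:105172894-105172918, plus strand, intron of RINT1: gcccTgTaagcTTgTgaaggTgcTT
chr2:233207732-233207753, plus strand, intron of DIS3L2: aagaTTTgagaggggcTgcTgT
chr1:110768774-110768794, plus strand, coding exon of KCNC4: ccTgcgccgaTggTagTgTcc
chr6:142737016-142737035, plus strand, coding exon of ADGRG6: aTggcTggaTcaccTccTTc

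A small set of members shared a run of bases with mature microRNAs. MicroRNAs guide Argonaute proteins to messenger RNAs through the seed, bases 2 to 8 from the 5′ end. Of 35 members in the microRNA class or inside a microRNA gene, 28 shared a run of 16 or more bases with a mature microRNA of RefSeq (table of build GRCh38.p14, matched by sequence). The mature sequences below are RefSeq's, with the seed in capitals, for the members with the most G45 reads and for seeds held by more than 1 member.
miR-18a-5p: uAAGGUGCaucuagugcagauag
miR-18b-5p: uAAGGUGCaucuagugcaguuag
miR-17-5p: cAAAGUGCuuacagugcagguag
miR-20a-5p: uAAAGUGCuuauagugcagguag
miR-93-5p: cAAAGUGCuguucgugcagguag
miR-106b-5p: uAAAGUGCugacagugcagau
miR-100-5p: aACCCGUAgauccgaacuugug
miR-99a-5p: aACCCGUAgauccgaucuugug
miR-22-3p: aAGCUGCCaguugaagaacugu
miR-21-5p: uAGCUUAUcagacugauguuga
miR-205-5p: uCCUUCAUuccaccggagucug

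The 6 libraries held between 6187300 (G35) and 38644636 (G20) reads in sites, and values are given as RPM, the reads at a site scaled to an equal depth of 1000000 such reads per library. The 2 HuR libraries differed at sites that overlapped no recurrent site. Of those with 25 or more reads, 46.0% held the run TTTTT in HuR replicate 2 and 3.25% did in HuR replicate 1, and their median lengths were 32 and 17 nt. HuR results are therefore given by replicate. Read intervals and floors cover counting error only, since these reads carry no molecular identifiers, and no test was run on the choice itself.

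Recurrent sites were spread over both strands and many genes. There were 3108 on the plus and 3132 on the minus strand, and 98 had another member starting within 100 bp on their strand. They fell in 2049 genes, of which 1766 held 1 member. In GENCODE, 93.0% (95% Wilson interval 92.4 to 93.6) of members lay in no annotated exon on their strand. The other 7471 G45 sites gave 93.1% (92.5 to 93.6), and the intervals overlap. Taking both strands, exons covered 2.80% of the nuclear genome, introns 30.7% and bases outside genes 66.5%. Nuclear members were at 6.66%, 32.4% and 60.9%, with more in exons than that share of the genome, and the other nuclear G45 sites were at 6.75%, 32.7% and 60.5%.

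By the authors' annotation, 3279 members (52.5%) were intergenic, 1133 (18.2%) intronic and 1130 (18.1%) in repeats. The structural RNA classes were small in number but had the highest share of recurrent sites. Of all G45 sites in the rRNA class, 86.3% (81.1 to 90.2) were recurrent, against 44.2% (43.1 to 45.3) of intergenic sites. The shares were 74.4% for tRNA (66.3 to 81.2), 78.4% for microRNA (62.8 to 88.6) and 77.3% for snRNA (56.6 to 89.9). All 9 sites in the authors' mitochondrial rRNA class were members. Sites in 3' untranslated regions were recurrent in 31.7% (25.5 to 38.7) of cases. Median levels in G45 were 55.3 RPM in the rRNA class, 25.2 in the intergenic, 15.1 in the tRNA and 14.4 in the 3' untranslated class. The part of read depth in the result was not tested.

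The members held most reads of the background slices and of Total, and a smaller share of HuR. Of the G20 library they took 95.0%, of G35 77.6% and of G45 78.9%. In HuR replicate 1 they took 31.7% and in HuR replicate 2 11.7%, a mean of 21.7% ± 14.1 (SD, n = 2). In Total they took 70.7%. The other G45 sites, although more numerous, held 8.34% and 0.952% of the HuR reads and 1.12% of Total.

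Ribosomal RNA carried much of that share in G20 and Total. Members of the rRNA class held 87.5% of G20 reads, 23.1% of G35 and 25.2% of G45 reads. They held 1.23% and 3.04% of the reads in HuR replicates 1 and 2, and 60.8% of Total, a library from which rRNA had been depleted. The authors' rRNA class was not free of mitochondrial rRNA. The 8 members in the mitochondrial gene MT-RNR2 were spread over the classes Mt rRNA, rRNA and tRNA. Intergenic members held 29.2% of G35 and 29.0% of G45 reads but 0.325% of Total. In the HuR replicates they held 16.1% and 4.45%. The 10 members with the most reads in a library held 87.6% of the member reads in Total and 80.5% in G20, against 25.4% in G35 and 26.7% in G45. Without those 10 sites the members held 19.1% of Total reads, and without rRNA sites 36.4%. The second of these values keeps a pair of repeat members on chromosome 21 that overlapped the same Total site as an rRNA member. Without every Total site that overlapped an rRNA member it was 9.93%, an alternative chosen after seeing the data.

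**Figure D1:**
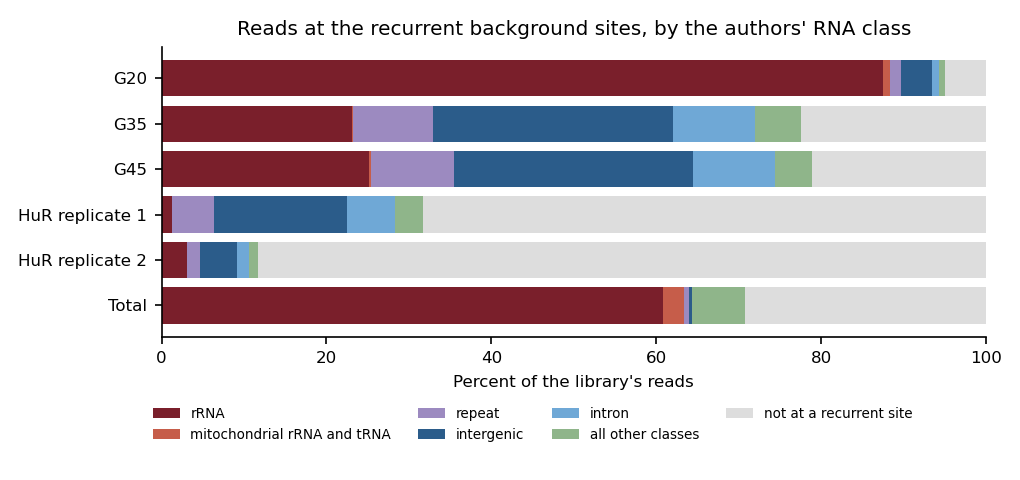
Percent of each library's reads at the recurrent sites, stacked by the authors' RNA class, with each library site counted under the member it overlaps most. The rRNA class fills 87.5% of G20 and 60.8% of Total, and the grey remainder is widest in the 2 HuR replicates.

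The sites of the rRNA class were long, with a median of 47 nt against 20 nt for all members. ANKRD30BL, a gene whose introns carry rRNA-like sequence, had 15 members, the most of any gene. Its site at chr2:133013067-133013218 had 15723, 68364 and 20672 reads in the slices in rising order of mass, and 8951, 26629 and 2879 in HuR replicate 1, HuR replicate 2 and Total. The site at chr1:91852782-91853151, in an intron of HFM1, had 3932584 G20 reads, 257498 G35 reads and 256121 G45 reads. It had 3435 RPM in HuR replicate 1, 4648 RPM in HuR replicate 2 and 811 RPM in Total. At chr21:9826893-9827581 the order was turned, with 214367 RPM in Total against 13348 RPM in G45. The same 7701131 Total reads were also counted at the repeat member chr21:9826687-9826829, since a group counts whole.

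Reads at the recurrent sites were found again in libraries that the rule had not used. A read was present in HuR replicate 1 at 95.5% of members against a background of 88.8% for all 13711 G45 sites. In HuR replicate 2 it was 6239 of 6240 members, with a background of 97.4%. The only member without a HuR read, chr1:69706174-69706191, had 27, 285 and 26 reads in G20, G35 and G45. Both replicates had a read at 95.5% of members (background 86.8%), and 25 or more reads in each at 61.8% (60.6 to 63.0, background 35.1%). These shares were above the background, by little for presence and by more for the deeper call.

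Total behaved differently from HuR. A Total read was present at 52.5% of members (51.2 to 53.7) against a background of 42.3% and 33.8% (32.7 to 34.9) of the other sites. At 2967 members Total had no read, which allows up to 0.0835 RPM there, and at 4412 it had 3 reads or fewer. Members with 25 or more Total reads made up 10.5%, with a background of 6.78%. All of HuR replicate 1, HuR replicate 2 and Total had a read at 50.5% of members (49.3 to 51.8), with a background of 38.5%.

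Depth in G45 differed between members and the other sites, with medians of 24.9 and 5.17 RPM. Presence was therefore also read within bins of G45 reads. The bins do not match depth in G20 and G35, where the rule asked 25 or more reads of each member. Over all sites, members and others had median reads of 83 and 13 in G20, and 125 and 17 in G35. Among sites with 25 to 49 reads, 42.5% (38.0 to 47.2) of 440 members and 25.6% (24.4 to 26.8) of 5079 others had a read in all of the HuR replicates and Total. With 50 to 99 reads the values were 42.5% (39.8 to 45.4) and 34.3% (32.2 to 36.4). With 100 to under 250 reads they were 47.8% (45.7 to 49.98) and 36.0% (31.3 to 40.9). The intervals did not overlap in these bins. They treat each site as independent, although 50.8% of members shared a run of 14 bases with another member, so they may be too narrow. For HuR replicate 1 alone the lowest bin gave 81.4% (77.5 to 84.7) and 80.3% (79.2 to 81.3), which overlap.

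**Figure D2:**
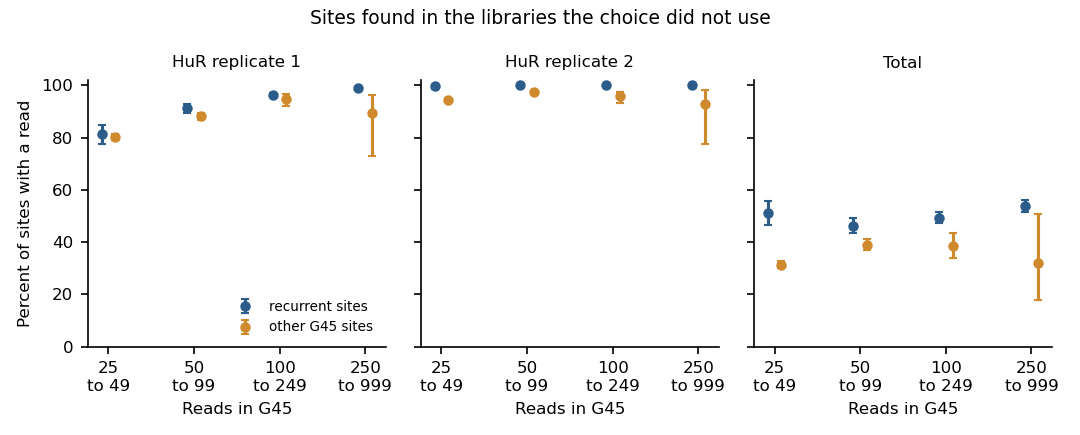
Percent of sites with at least 1 read in HuR replicate 1, HuR replicate 2 and Total (vertical axis) by the number of G45 reads (horizontal axis), with 95% Wilson intervals. In Total the members lie above the other sites in the bins up to 250 G45 reads, and in HuR replicate 1 the points nearly coincide at 25 to 49 reads.

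Most members had a higher level in HuR than in Total. Both HuR replicates were 2-fold or more above Total in RPM at 5226 members, 83.8% against a background of 70.3%. With 25 to 49 G45 reads it was 56.4% (51.7 to 60.9) of members and 54.2% (52.8 to 55.6) of others, which overlap. With 50 to 99 reads it was 73.1% and 68.0%, and with 100 to under 250 it was 86.4% and 78.0%. These bins, too, match depth in G45 only. Total was 2-fold or more above both replicates at 181 members, 2.901% against a background of 2.10%. In the same 3 bins this was 11.6% of members and 1.65% of others, 4.07% and 0.756%, and 1.36% and 2.12%. The median member had 6.51 RPM in HuR replicate 1, 3.83 RPM in HuR replicate 2 and 0.0278 RPM in Total. The cause of the lower level in Total was not tested. Nor was it tested whether reads at these sites come from RNA of the place they map to.

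The sites with more reads in Total were mostly structural RNAs. Total was 2-fold or more above both HuR replicates at 25 of 30 snoRNA, 11 of 17 snRNA, 8 of 9 mitochondrial rRNA, 6 of 6 miscRNA, 26 of 96 tRNA and 48 of 189 rRNA members, against 19 of 3279 intergenic members. The rRNA and tRNA classes were mixed, since both HuR replicates were 2-fold or more above Total at 63 rRNA and 38 tRNA members. RNU2-2P, a gene for the U2 spliceosomal RNA, had 9864, 924 and 974 reads in G20, G35 and G45, 226 and 1043 in the HuR replicates and 223582 in Total. RNY5, a Y RNA bound by the Ro protein, had 5184, 573 and 664 reads in the slices, 143 and 4206 in HuR and 175916 in Total. RMRP, the RNA of RNase MRP, which cuts the rRNA precursor, had 297 RPM in Total against 30.6 in G45 at chr9:35657864-35658017. The same 10653 Total reads were also counted at its member chr9:35657743-35657863. Of the snRNA list fixed for this work, 15 members and 4 other G45 sites were found, and of the snoRNA and scaRNA genes 20 and 11. All 35 of those members had a Total read. The list of other polymerase III RNAs had 8 members and 2 other sites.

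The intergenic sites shown above had the opposite pattern. The site chr2:62613217-62613240 had 18831, 60019 and 50485 reads in G20, G35 and G45, 7423 and 41060 in the HuR replicates and 29 in Total. The site chr3:31079981-31080004 had 17131, 47291 and 44724 reads in the slices, 2617 and 38260 in HuR and 1 in Total. Reads were thus high in HuR and low in Total, while the high slice reads were fixed by how these sites were picked. Of all 3279 intergenic members, 219 had 25 or more Total reads, 6.68% against a background of 6.78%. The site chr7:86415079-86415101, in an intron of the noncoding gene GRM3-AS1, had 10179, 29793 and 23064 reads in the slices and 1903 and 22085 in HuR. Total had none there, nor at chr5:107772087-107772110, with 19141 G45 reads, nor at the RINT1 site, with 20088. The chr7:86415079-86415101 and chr5:107772087-107772110 sites were picked for having no Total read. With the RINT1 site they are examples of the 2967 members without Total reads.

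Members in coding exons were few, 100 by GENCODE against 2015 in introns, and their levels were uneven. HASPIN, a kinase that phosphorylates histone H3 in mitosis, had a coding site at chr17:3627401-3627433 with 25683, 120255 and 61253 reads in G20, G35 and G45. That site had 131194 reads in HuR replicate 1, 60828 in replicate 2 and 405317 in Total, so it was high in all 6 libraries. The coding site of KCNC4, a voltage-gated potassium channel, had 26178 reads in G45, 32637 and 14431 in HuR and 8 in Total. The list of translation factor genes held 6 members and 6 other sites, that of cytosolic ribosomal protein genes 3 and 2, and that of replication-dependent histone genes 0 and 5. ELAVL1 itself had no member and 1 other site.

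Several long genes held a number of intronic members. CNTNAP2, a neurexin-family adhesion gene, held 6 members, which carried 1049 of the 1470 G45 reads in the gene and 8 of its 667 Total reads. NKAIN2 held 4, with 4341 of 4722 G45 reads and 12 of 5955 Total reads. FHIT, a gene at a common fragile site, held 4, with 1587 of 2343 G45 reads and 2 of 3897 Total reads. Since the rule chose deep G45 sites, their part of the G45 reads is fixed by it. Among the 20 genes with the most members, those with all members in introns outside the rRNA class had from 0.0513% (FHIT) to 43.1% (TMEM132D) of the gene's Total reads at members, with CLVS1 at 33.9% and LINGO2 at 10.4% also above 10%. The genes are long, and their count of members was not compared with their length.

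Both HuR replicates were 2-fold or more above all 3 slices at 4 members (0.0641%), against a background of 9 of all G45 sites (0.0656%). The shares were alike, so this call did not set the members apart. The rule chose members by their slice reads, which this call also uses. The 4 members are named after their values were seen. A pair lay in MALAT1, a nuclear long noncoding RNA that held 4 members and, with NEAT1 and KCNQ1OT1, 4 other sites. At chr11:65268287-65268327 MALAT1 had 1.45, 25.4 and 13.7 RPM in G20, G35 and G45, 54.7 and 305 RPM in the HuR replicates and 8.10 RPM in Total. At chr11:65271712-65271775 it had 6.42, 10.3 and 7.56 RPM in the slices, 35.5 and 358 RPM in HuR and 9.46 RPM in Total. The other 2 lay in 3' untranslated regions, in NUCKS1, a nuclear DNA-binding protein, and TM9SF3, a membrane protein. NUCKS1 had 5.31 RPM in G45 and 19.3 and 110 RPM in HuR, and TM9SF3 had 6.76 RPM in G45 and 17.5 and 34.0 RPM in HuR. That the HuR replicates lay above every slice at these sites follows from the call. Replicate 2 lay above replicate 1 at each.

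Over all members, levels in HuR replicate 2 followed G45 closely and those in HuR replicate 1 less so. Pearson's r of log10 reads over members with reads in both was 0.846 for G45 and HuR replicate 2 (6239 members) and 0.553 for G45 and HuR replicate 1 (5958 members). Between the 2 HuR replicates it was 0.380, and between G45 and Total 0.174 (3273 members). These are descriptions over sites chosen for their G45 reads, which share library depth and site length, and no test was made of them.

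**Figure D3:**
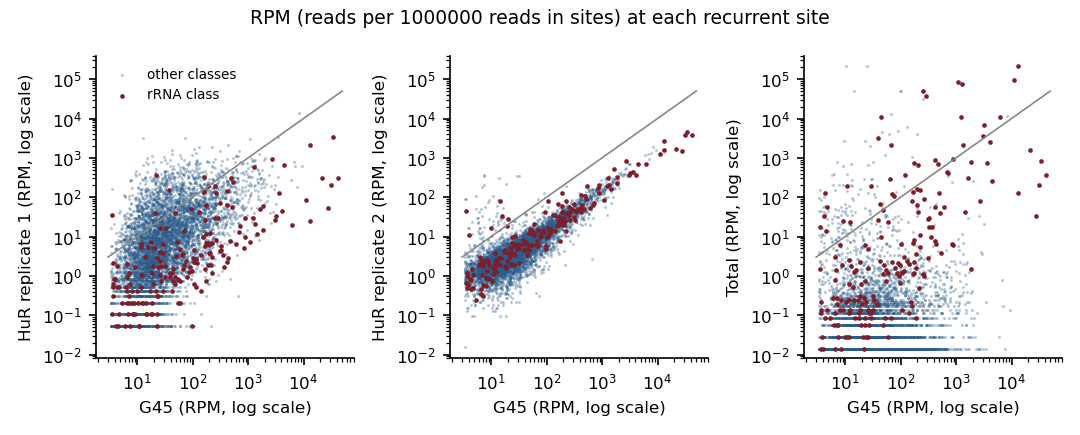
RPM at each of the 6240 recurrent sites in G45 (horizontal, log scale) against HuR replicate 1, HuR replicate 2 and Total (vertical, log scale), with the line of equal values. Sites with no read are drawn at the level of a fraction of 1 read, and rRNA-class sites are in red. HuR replicate 2 runs as a narrow band below the line, HuR replicate 1 is broad, and Total is split between low values and rRNA.

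Conversions at the recurrent sites gathered near whole numbers of events per read. In G45, 1880 members (30.1%) had under 0.1 T-to-C events per read, 2478 (39.7%, 38.5 to 40.9) had 0.9 to 1.1, and 379 (6.07%) had 1.9 to 2. The authors allowed at most 2 such changes per read. The other G45 sites gave 31.5%, 38.5% (37.4 to 39.6) and 4.99%, so the main classes were of like size in both. The classes also returned in other libraries. Of members with 25 or more reads there, 87.3% (86.2 to 88.3) of 4012 in HuR replicate 1 and 89.3% (88.5 to 90.1) of 5943 in replicate 2 were in the same class as in G45. In Total it was 72.7% (69.1 to 75.9) of 655. The share was lower away from whole numbers. For members with over 1.1 and under 1.9 events per read in G45 it was 56.5%, 80.1% and 37.8% in these libraries. It was computed for members only, so it is not shown to be particular to them.

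The site chr2:62613217-62613240 was near 1 event per read, with 100.1 events per 100 reads in G35 and in HuR replicate 2 and 96.6 over its 29 Total reads. The site chr3:31079981-31080004 was near 2 events per read, with 199.5 per 100 reads in G45 and 199.8 in each HuR replicate. KCNC4 stood at the other end, with 0.604 in G45 and 0.362 and 0.755 in HuR. At these sites the slices and HuR held nearly the same number of events per read. A site with 1 or 2 changes in nearly every read is also a site where nearly every read differs from the genome. Reads were not compared with sequences outside the human reference, so whether such reads come from the genome position they map to was not tested.

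**Figure D4:**
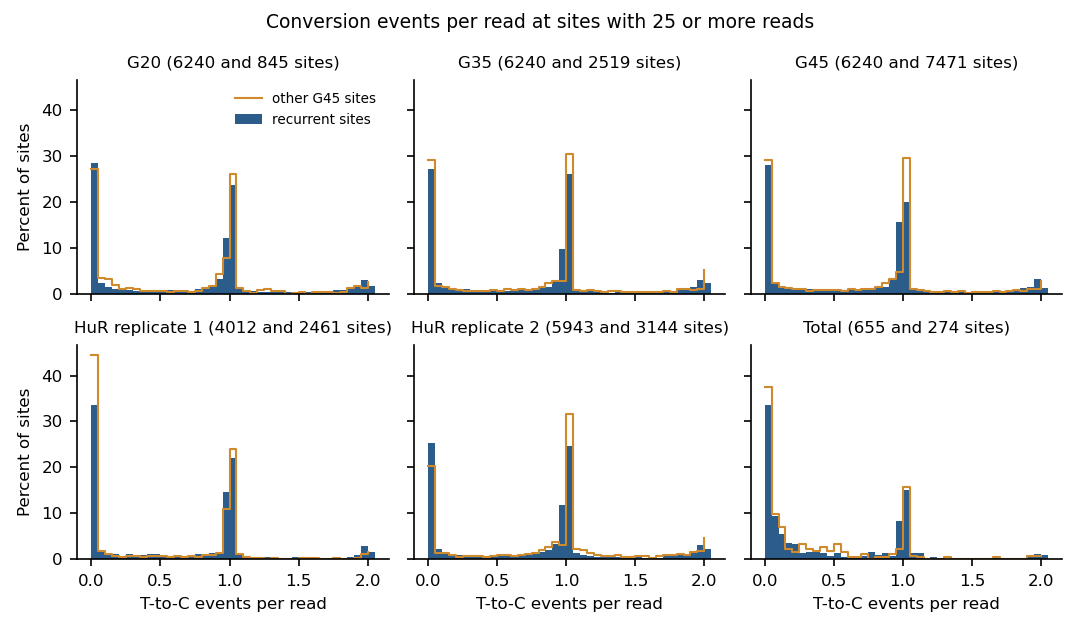
Distribution of T-to-C events per read (horizontal axis) in each library at sites that held 25 or more of its reads, as percent of sites (vertical axis), with blue bars for recurrent sites and an orange line for the other G45 sites. Peaks stand near 0, 1 and 2 events per read in the slices and both HuR replicates, and Total has more sites between 0 and 1.

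The classes of RNA differed in conversion. In G45, by the authors' classes, 26 of 29 microRNA and 20 of 30 snoRNA members had under 0.1 events per read. None of either class reached 0.9. Among intergenic members 42.3% stood at 0.9 to 1.1. Summed over reads, members had 17.6, 58.2 and 53.7 events per 100 reads in the slices from 20 to 45 kDa, and 42.7 in Total. The rRNA class, with 87.5% of G20 reads, had 13.4 there, and intergenic members had 84.1, 82.1 and 75.3 in the slices. In Total the rRNA site chr20:17469746-17469784 alone had 2979301 reads at 199.9 events per 100. In HuR replicate 1 they had 46.4 and in replicate 2 64.9, a mean of 55.7 ± 13.1 (SD, n = 2), against 36.9 and 90.5 at the other G45 sites. The order of members and other sites thus turned between the 2 HuR replicates. Against the whole library it did not turn. All reads of HuR replicates 1 and 2 had 48.6 and 87.3 events per 100, above the members in each.

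Conversions in HuR stood apart from the slices at a small number of members. Of 3856 members with 25 or more reads in all 3 slices and both HuR replicates, 62 had 10 or more events per 100 reads more in both HuR replicates than in every slice, and 14 had as many fewer. These are 1.61% and 0.363%, which are also the shares over all G45 sites that could be called, since the depth needed makes each of them a member. By class the 62 included 20 of 47 members in 3' untranslated regions, 4 of 8 snRNA and 3 of 3 miscRNA members, but 5 of 2069 intergenic and 0 of 721 intronic members. The examples that follow were picked for the pattern. The MALAT1 site at chr11:65268287-65268327 had 15.5 events per 100 reads in G45 and 73.9 in G35, and 102.3 and 104 in the HuR replicates. RNY5 had 10.6, 7.33 and 13.6 in the slices, 85.3 and 89.7 in HuR and 3.29 in Total. RNU4-1, a U4 spliceosomal RNA, had 13.1, 19.9 and 25.8 in the slices, 97.9 and 98.8 in HuR and 6.71 in Total. RNU2-59P did not show the pattern, with 41.8 in both HuR replicates and 46.8 in G35. With 2 HuR samples and 1 library per slice these differences were not tested.

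Most microRNA members had few conversions. Of the 28 matched members, 24 had under 10 events per 100 G45 reads, and miR-18b-5p, miR-184 and miR-5100 had 57.1, 64.2 and 100 there. The miR-5100 site shared 18 bases with that microRNA and lay outside the authors' microRNA class. Whether its reads come from the microRNA was not tested. The miR-18a-5p site had 6168, 22934 and 23832 reads in G20, G35 and G45, 636 and 22074 in HuR and 748 in Total. Its conversions ran from 3.62 to 4.95 events per 100 reads over the 6 libraries. The site of miR-18b-5p, which shares the seed AAGGUGC, had 1970 G45 reads. Sites with the seed AAAGUGC, those of miR-17-5p, miR-20a-5p, miR-93-5p and miR-106b-5p, had 26 to 46 G45 reads each. They were thus far below miR-18a-5p, although miR-17, miR-18a and miR-20a are made from the same transcript, MIR17HG. The site of miR-205-5p, known from epithelia, had 519 G45 reads and that of miR-142-3p, known from blood cells, had 29, with 37 and 26 in G35 and G20.

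The borders of recurrent sites were rarely next to G, after which RNase T1 cuts. The genome base before the start was G at 24.2% of members (23.1 to 25.2), and the last base was G at 24.8% (23.8 to 25.9). The other G45 sites gave 24.2% and 27.2%. At Total sites with 25 or more reads that overlapped no member these shares were 91.1% and 93.8%, and at such HuR replicate 2 sites 86.8% and 95.7%. HuR replicate 1 gave 31.0% (30.2 to 31.8) and 34.4%, above the members but far below replicate 2. Among the members themselves G came before the start at 76.7% (59.1 to 88.2) of snoRNA sites, 46.7% (34.6 to 59.1) of 3' untranslated sites and 22.6% (21.2 to 24.1) of intergenic sites.

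**Figure D5:**
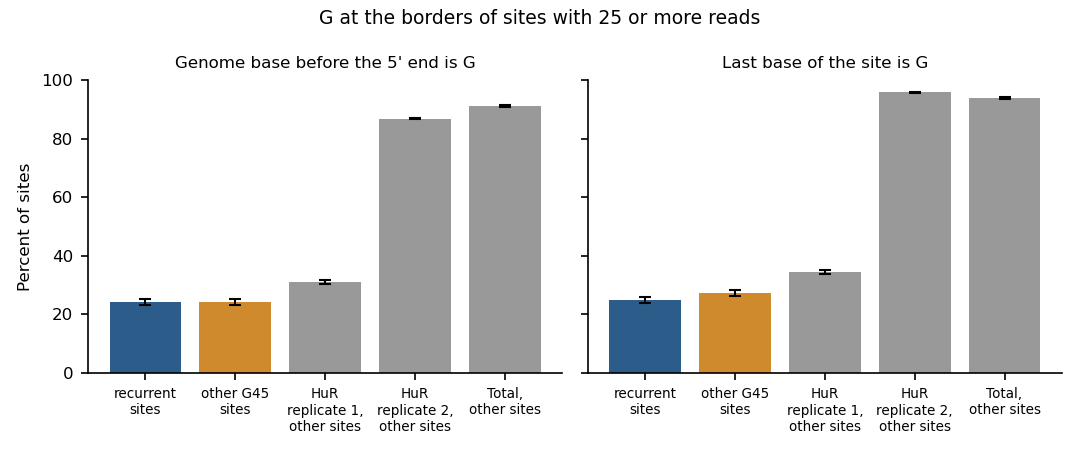
Percent of sites with G as the genome base before the 5′ end (left) and as the last base (right), with 95% Wilson intervals, for recurrent sites, other G45 sites and sites with 25 or more reads in HuR replicate 1, HuR replicate 2 and Total that overlap no member. Only HuR replicate 2 and Total stand above 80%.

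The members had more G than the HuR replicate 2 sites and fewer U runs. Their bases were 24.7% A, 18.0% C, 30.0% G and 27.2% T, close to 28.7% G and 28.4% T at the other G45 sites. HuR replicate 2 sites outside the members had 15.6% G and 43.5% T, and those of HuR replicate 1 had 28.3% G and 27.3% T, near the members. The run TTTTT, searched on each site's own strand, was in 1.57% (1.29 to 1.91) of members, 2.52% (2.18 to 2.897) of the others and 3.25% and 46.0% of those HuR replicate 1 and 2 sites. With sites of 25 nt or less only, the shares were 0.953% of members, 0.481% of HuR replicate 1 sites and 26.8% of HuR replicate 2 sites. ATTTA gave 1.49% of members, 1.61% of the others, 1.499% of the HuR replicate 1 sites and 18.2% of the HuR replicate 2 sites. The members were thus far below HuR replicate 2 in both runs. Against HuR replicate 1 they were lower in TTTTT over all sites and higher in sites of 25 nt or less. In ATTTA they were alike over all sites, with 1.16% of members and 0.535% of HuR replicate 1 sites at 25 nt or less. A window of 8 nt with 5 or more G was in 29.1% (28.0 to 30.2) of members and 23.4% (22.4 to 24.3) of the others. With sites of 25 nt or less only, it was in 26.9% (25.8 to 28.0) and 23.1% (22.1 to 24.1).

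Many members shared stretches with each other. Of the 6240, 3169 (50.8%) held a run of 14 bases also found in another member, in 844 families of up to 56 sites, against 29.5% of the other G45 sites. In sites of 25 nt or less the shares were 48.0% and 29.1%. Members with a shared run are not independent of each other. In the rRNA class 83.1% of members shared such a run, and in the intergenic class 34.9% shared it with another intergenic member.

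At the threshold there were 7 members with exactly 25 G45 reads, among them chr22:30321391-30321411, with 28 in G20 and 61 in G35. Of the other sites, 166 had 24 reads in the lower of G20 and G35, and 2512 lacked the depth only in G20. The G45 site with the most reads among the non-members, chr17:15030226-15030248, had 7 reads in G20 and 43 in G35. A minimum of 100 reads in each slice left 2370 sites and a minimum of 10 gave 11544.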

How the data were processed

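Site counts were taken as the authors deposited them. Per the labels and the study's methods, adapters were removed, reads under 10 bp were dropped, and reads were aligned to hg19 with Bowtie, allowing up to 2 mismatches and up to 10 equally good places. PARalyzer then joined overlapping, uniquely mapping reads with 0 to 2 T-to-C changes into groups, each with a read count, a conversion event count, a sequence and an RNA class. The clusters it also wrote served only as an alternative. The 6 libraries held 6187300 to 38644636 reads in groups.

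Overlaps were computed with numpy 2.4.6 and pandas 2.3.3 in Python 3.11.15 and were checked on simulated data. Site sequences were compared with GRCh37, and genes were taken from GENCODE release 44 on GRCh37. A library's reads at the members are the sum over its groups that overlap one by 1 bp or more on the same strand, each counted once. A group counts whole, so a long group gives all its reads. RPM is reads scaled to 1000000 reads in groups per library. Shares have 95% Wilson intervals, which treat each site as independent. HuR has 2 samples and every other group 1, so no test was made between groups, and comparisons rest on intervals for counting error.

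Named sites were the 3 members with the highest geometric mean RPM over the slices in each class of 20 or more members, the 5 highest in HuR and in Total, the 3 highest without reads in Total or HuR, sites in fixed gene lists, the 20 genes with most members and 3 sites on each side of the threshold. Members and lists were chosen with earlier results of these data known. The microRNAs and the 4 members above all slices in HuR were named after their values were seen.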

Additional observations from a re-analysis of the deposited data

How the results depend on the processing

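Of 89 values computed under 17 alternative settings, 55 stayed within a set limit. It was a fold for the number of members, the SD of the 2 replicates for HuR values and the counting interval otherwise. The SDs were wide, 14.1 for the HuR share and 13.1 for HuR conversions. Leaving out either HuR replicate can never pass that SD, so those values could only stay within it. The number of members was 2370 with 100 or more reads per slice and 11544 with 10 or more. With clusters in place of groups the members held 40.4% of HuR reads (66.6% in replicate 1, 14.2% in replicate 2) and 78.2% of Total reads (shares of reads in clusters), 9.29% had a read in all of HuR and Total, G was 29.7% and Total had 57.6 conversion events per 100 reads. Without either HuR replicate in turn, the HuR share was 11.7 to 31.7% and HuR conversions 46.4 to 64.9 per 100 reads. The Total share was 71.1% with overlap on either strand, 69.2% and 72.4% with minimums of 100 and 10 reads, 70.7% and 70.8% with G20 or G35 sites as members, 59.9% without the mitochondrial genome, 36.4% without rRNA sites, 9.93% without every Total group that overlaps one (chosen after seeing the data), 19.1% without the 10 largest members and 63.2% with reads shared out by length. Presence in all of HuR and Total was 52.4% (either strand), 59.2% (100 reads), 41.7% (10 reads), 49.2% (without rRNA) and 22.6% with 5 reads needed. Members in no exon were 93.8% (100 reads) and 91.9% (10 reads), and G was 29.8% (100 reads) and 30.7% (weighted by reads). Total conversions per 100 reads were 42.5 (either strand, and 10 reads), 43.0 (100 reads), 42.6 (G35 sites), 46.3 (no mitochondrial genome), 22.4 (without rRNA sites), 29.1 (without Total groups that overlap one) and 42.9 (without the 10 largest). The causes of these moves were not tested. No paired analysis was possible because the groups compared share no replicate pairs. Single libraries limit every comparison between slices and Total.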

Other observations

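Most intergenic members lay opposite no gene. Of the 3789 members that GENCODE placed outside genes, 1631 (43.0%) had a gene on the opposite strand, against 45.7% of such other G45 sites. In the 500 nt after a protein-coding gene's start on its strand lay 35 members (0.561%, 95% Wilson interval 0.404 to 0.779) and 0.696% (0.531 to 0.912) of the other G45 sites. In the 500 nt before it on the opposite strand lay 36 members (0.577%, 0.417 to 0.798) and 0.468% (0.337 to 0.651) of the others. Each window made up 0.173% of the nuclear genome on both strands, so both kinds of site lay above that share, and their intervals overlapped.

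Borders were the same to the base less often at members than at the other G45 sites. Of sites with 25 or more reads in the other library, both ends were equal to those in G45 at 29.1% of members and 40.2% of others in HuR replicate 1, at 40.6% and 50.7% in HuR replicate 2 and at 14.7% and 31.1% in Total. The mode position of the cluster inside the site was the same as in G45 at 61.5% of 1257 members and 59.9% of others in HuR replicate 1, at 75.5% of 4745 and 75.8% in HuR replicate 2, and at 42.7% of 482 and 39.0% in Total.

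Of 5993 members of at most 40 nt, 18 were found without a mismatch in the GRCh37 contig GL000220.1, which holds ribosomal DNA. A further 20 were found there when 1 T was read as C, and 15 of these had 0.9 or more conversion events per read in G45. With T read as A or as G the counts were 3 and 4. Of 7381 other G45 sites of that length, 11 were found without a mismatch and 20 with 1 T read as C, 13 of them with 0.9 or more events, and with T read as A or as G the counts were 0 and 7.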
